A study of Mus musculus with 11 samples.

Results

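The genes described here are 10 components of endothelin signaling and of nitric oxide-cGMP signaling in mouse Leydig tumor cells: *Edn1*, *Ece1*, *Ednra*, *Ednrb*, *Nos3*, *Gucy1a3*, *Gucy1b3*, *Npr1*, *Npr2*, and *Prkg1*. They were chosen by name as the ligand, processing enzyme, receptors, and cGMP-producing and cGMP-responsive proteins of these routes, and *Ednra* and *Gucy1a3* were picked because their signals were higher in siRNA-transfected cells than in control cells on these same arrays. For these 2 genes the comparison of siRNA with control is therefore given as a description, without a test. The array held 20 probes for the 10 genes, among 41174 probes in all, and 11 of the 20 probes, from 7 of the 10 genes, passed the filter on dim signals described below, as did 24250 probes of the whole array. Current RefSeq names of *Gucy1a3* and *Gucy1b3* are *Gucy1a1* and *Gucy1b1*.

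Endothelins are peptides that are made as inactive precursors, cut to their active form by endothelin converting enzymes, and bound by the receptors *Ednra* and *Ednrb*, which act through G proteins and intracellular calcium. Nitric oxide, made by nitric oxide synthases such as *Nos3*, switches on soluble guanylyl cyclase, a heterodimer of an alpha subunit (*Gucy1a3*) and a beta subunit (*Gucy1b3*), while the natriuretic peptide receptors *Npr1* and *Npr2* are guanylyl cyclases of the cell surface, and the cGMP made by either kind activates the protein kinase *Prkg1*. These routes are best known as opposing controls of vascular tone, and in the testis they are known from peritubular cells, vessels, and Leydig cells, in which they can influence steroid production.

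The study asked how knockdown of *Mamld1* alters gene expression in MLTC-1 cells, a line from a mouse Leydig cell tumor that retains part of the steroid-producing machinery. Cells were transfected with non-targeting control RNA (4611G) (control, 4 arrays), with siRNA1 against *Mamld1* (4 arrays), or with siRNA2 against *Mamld1* (3 arrays), each at 20 nM, and the labels place RNA extraction 48 hours later. According to the study's methods, this RNA came from the cells used for steroid measurements, to which human chorionic gonadotropin, a stimulus of Leydig cells, was added before harvest in all groups. Every group received RNA and transfection reagent, there was no untransfected group, all samples are of 1 cell line, the labels do not say whether replicates were separate cultures, and the methods describe hybridization in triplicate, which does not match these array numbers, so the p-values measure the spread between samples, which may be technical. Each sample (300 ng RNA) was hybridized to 1 one-color Agilent array, and each of the 3 slides carried arrays of all 3 groups.

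The 75th percentile of the signal ranged from 470 to 774 per array, 58.6% to 62.6% of spots were marked as well above background, and no spot was saturated. The dimmest well-above-background signal of an array lay between 6.94 and 8.90 units. *Mamld1*, the targeted gene, had 1 probe, with scaled signals of 85.2% to 119% of control in the control arrays, 44.1% to 77.0% with siRNA1, and 45.3% to 68.6% with siRNA2, and neither siRNA group overlapped the control group. All 7 Leydig cell markers examined (*Star*, *Cyp11a1*, *Cyp17a1*, *Hsd3b1*, *Lhcgr*, *Insl3*, and *Nr5a1*) passed the filter. Probes were tested with limma if all arrays of 1 or more groups showed them well above background. "Rose" and "fell" denote an adjusted p (Benjamini-Hochberg) no higher than 0.05 over all 24250 probes, and both siRNA comparisons share the control arrays.

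Levels below are scaled to each array's 75th percentile and given in percent of the mean log2 level of the control arrays for the same probe, so that they can be compared between arrays but not between probes. Where a gene had several probes, its main probe is the one with the highest mean log2 signal among those that passed the filter. Because RNA was taken from whole cultures, fewer cells expressing a gene and less RNA per cell cannot be told apart.

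The promoters of the 2 genes picked for their rise are shown so that their sequence can be read beside the signals. Both are the 250 bases before a RefSeq transcription start in GRCm38.p6, written 5′ to 3′ on the strand of the gene, and the capitals mark a GC box (GGGCGG). The *Ednra* window is chr8:77724453-77724702 on the minus strand, and the *Gucy1a3* window, of the first of 2 listed starts, is chr3:82145651-82145900 on the minus strand.
Ednra: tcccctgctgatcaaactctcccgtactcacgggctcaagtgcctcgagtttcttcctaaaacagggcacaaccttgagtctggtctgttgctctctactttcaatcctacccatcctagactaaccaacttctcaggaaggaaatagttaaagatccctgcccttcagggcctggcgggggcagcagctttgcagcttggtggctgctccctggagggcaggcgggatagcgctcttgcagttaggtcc
Gucy1a3: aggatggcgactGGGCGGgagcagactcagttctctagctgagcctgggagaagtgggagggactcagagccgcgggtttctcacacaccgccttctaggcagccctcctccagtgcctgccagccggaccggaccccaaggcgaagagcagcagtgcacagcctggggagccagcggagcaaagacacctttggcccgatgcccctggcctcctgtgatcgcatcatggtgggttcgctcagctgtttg
Letters of 6 motifs were searched on both strands in these windows and in all 32851 promoters of this length. The core of a cAMP response element (TGACG) occurs in 17.8% of all promoters. The site of the steroidogenic factor NR5A1 (AAGGTCA) occurs in 4.08% of them, and that of the Notch effector RBPJ (TGGGAA) in 21.6%. The E-box (CACGTG) occurs in 6.02% of all promoters and the GC box in 32.7%. The remaining motif, the TATA box (TATAAA), occurs in 12.4% of all promoters. None of the 6 is in the *Ednra* window, which says only that these letters do not occur there. The *Gucy1a3* window holds 1 GC box, 238 to 233 bases before the start, and the window before the second *Gucy1a3* start holds the RBPJ letters at 3 positions. GC content was 54.8% for *Ednra* and 64% for the first *Gucy1a3* start, against a median of 52.4% over all promoters.

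The ligand of the pathway was not measurable. The single *Edn1* probe was not well above background on any of the 11 arrays, with signals of 1.80 to 2.33 units. *Ece1*, which cuts the endothelin precursor, had 1 probe, well above background throughout. In the control arrays its level was 94.5%, 101%, 95.1%, and 111%. With siRNA1 it was 76.6%, 84.3%, 91.6%, and 108%, and with siRNA2 it was 103%, 105%, and 143%. The siRNA1 values reached from below the lowest control into the control range, 1 siRNA2 array lay above all others, and both groups overlapped the control. The log2 difference from control was -0.16 with siRNA1 (95% interval -0.45 to 0.13, limma adjusted p = 0.413) and 0.21 with siRNA2 (-0.11 to 0.52, limma adjusted p = 0.387). Between the siRNAs, *Ece1* was lower with siRNA1 by a log2 difference of -0.37 (95% interval -0.68 to -0.05), which did not pass the test in limma (adjusted p = 0.0903) but did with slide as a block (-0.35, adjusted p = 0.0140), and the difference within each slide was -0.42 to -0.26.

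*Ednra*, the receptor through which endothelin contracts smooth muscle, showed the largest difference from control among the 7 main probes. The main probe (A_52_P156190) gave 101%, 101%, 88.6%, and 111% in the control arrays. With siRNA1 the level was 551%, 520%, 521%, and 525%. With siRNA2 it was 242%, 237%, and 264%. The 3 groups did not overlap, the siRNA2 arrays lay between the control and the siRNA1 arrays, and before scaling the signals were 119 to 138 units in control, 782 to 1009 with siRNA1, and 323 to 347 with siRNA2. As a description of the values that chose the gene, the level was 5.29-fold the control with siRNA1 (log2 difference 2.40, SE 0.083) and 2.47-fold with siRNA2 (1.31, SE 0.090). Of all tested probes, 12.7% lay above every control array with siRNA1 and 12.4% with siRNA2, and nothing is read from this for genes picked for their rise. Within slides, the log2 difference from control was 2.25 to 2.55 with siRNA1 and 1.25 to 1.42 with siRNA2.

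The difference between the siRNAs was not itself what *Ednra* was picked for. It is computed from the same siRNA values that chose the gene, so its p-values are not independent of that choice. *Ednra* was 2.14-fold higher with siRNA1 than with siRNA2 (log2 difference 1.10, 95% interval 0.90 to 1.29, limma adjusted p = 1.17e-05). All 4 siRNA1 arrays exceeded all 3 siRNA2 arrays, for which the two-sided exact permutation p was 0.0286, the smallest that this design allows. Within the 3 slides the difference was 0.99 to 1.19. Over all tested probes, 11.7% were higher with siRNA1 than with siRNA2 by the adjusted p, 11.8% were lower, 14.9% were higher without overlap, and 1.91% were higher and 1.45% lower by at least 2-fold.

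The other 2 *Ednra* probes were dim. Probe A_52_P622988, named through the table that the authors deposited, gave 144%, 103%, 71.8%, and 93.9% in control arrays, in none of which it was well above background. With siRNA1 it gave 759%, 656%, 507%, and 673%, well above background on all 4 arrays, and with siRNA2 345%, 262%, and 360%, on no array well above background. The siRNA1 level was at least 1.99-fold the control and at least 1.90-fold the siRNA2 level, where the dim group is set to the dimmest well-above-background signal of each array. Between control and siRNA2 this probe gives no order, because neither group was above background. Probe A_51_P457734 was well above background on 3 of 4 siRNA1 arrays and on no other array and was not tested. It gave 328%, 309%, 351%, and 212% with siRNA1, 68.8% to 156% in control, and 62.7%, 228%, and 64.8% with siRNA2.

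**Figure D1:**
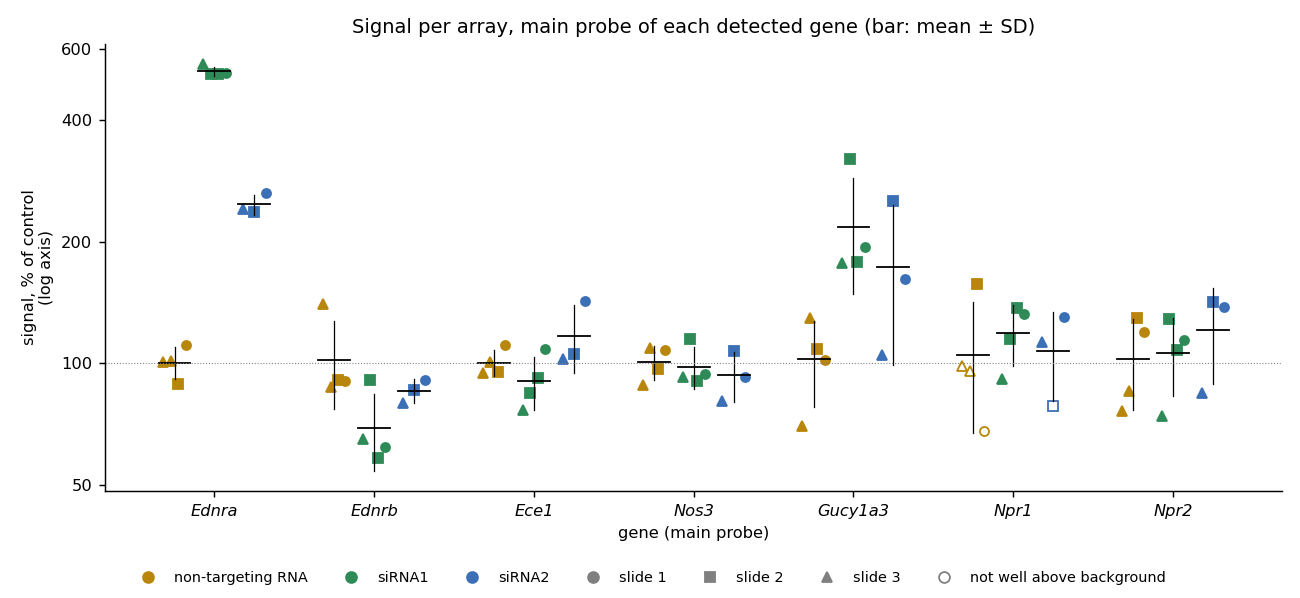
Level of each gene's main probe on every array, in percent of the control mean on a logarithmic axis, for the 7 genes that passed the filter. Bars give the mean and SD of each group, marker shapes the slide, and open markers arrays where the probe was not well above background: *Ednra* separates into 3 levels, *Gucy1a3* is higher with siRNA1, and the groups of the other 5 genes overlap.

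*Ednrb*, the second endothelin receptor, moved the other way with siRNA1, by a smaller amount. Its main probe (A_52_P577662) gave 140%, 87.1%, 91.0%, and 90.2% in the control arrays. Under siRNA1 it gave 65.0%, 90.7%, 58.1%, and 62.0%. With siRNA2 it gave 79.5%, 85.9%, and 90.9%. On 3 of the siRNA1 arrays the level lay below every control array, and on replicate 2 it lay within the control range, so that the groups overlapped. *Ednrb* fell by 0.56 on the log2 scale with siRNA1 (SE 0.17, 95% interval -0.94 to -0.18, limma adjusted p = 0.0342, exact permutation p = 0.0857). It was the only one of the 5 unpicked genes that passed the test with siRNA1, where 27% of all tested probes did in either direction, 15.2% downward. The call was lost without control replicate 1, the highest array (-0.40, adjusted p = 0.0710), without siRNA1 replicate 1, 3, or 4 (adjusted p = 0.0751, 0.0998, and 0.0813), and with slide as a block (-0.56, adjusted p = 0.0520), although the difference was negative within each slide (-0.76 to -0.33). Without the filter on dim probes the adjusted p was 0.0728, and with normexp background correction (offset 50) the sign turned (0.56, adjusted p = 0.503).

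With siRNA2 the *Ednrb* difference was -0.23 (95% interval -0.64 to 0.18, limma adjusted p = 0.479), and the siRNAs differed by -0.33 (-0.74 to 0.08, limma adjusted p = 0.240), so a difference between the siRNAs was not shown. The second *Ednrb* probe was not well above background on any array. With siRNA2, 0 of the 5 unpicked genes passed the limma test, where 18.4% of all tested probes did, and 0 had an unadjusted p under 0.05 in limma or in the exact permutation test. Between the siRNAs 0 of the 5 passed, where 23.5% of all tested probes did, and 1 (*Ece1*) had an unadjusted p under 0.05 in limma and 0 in the exact permutation test.

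**Figure D2:**
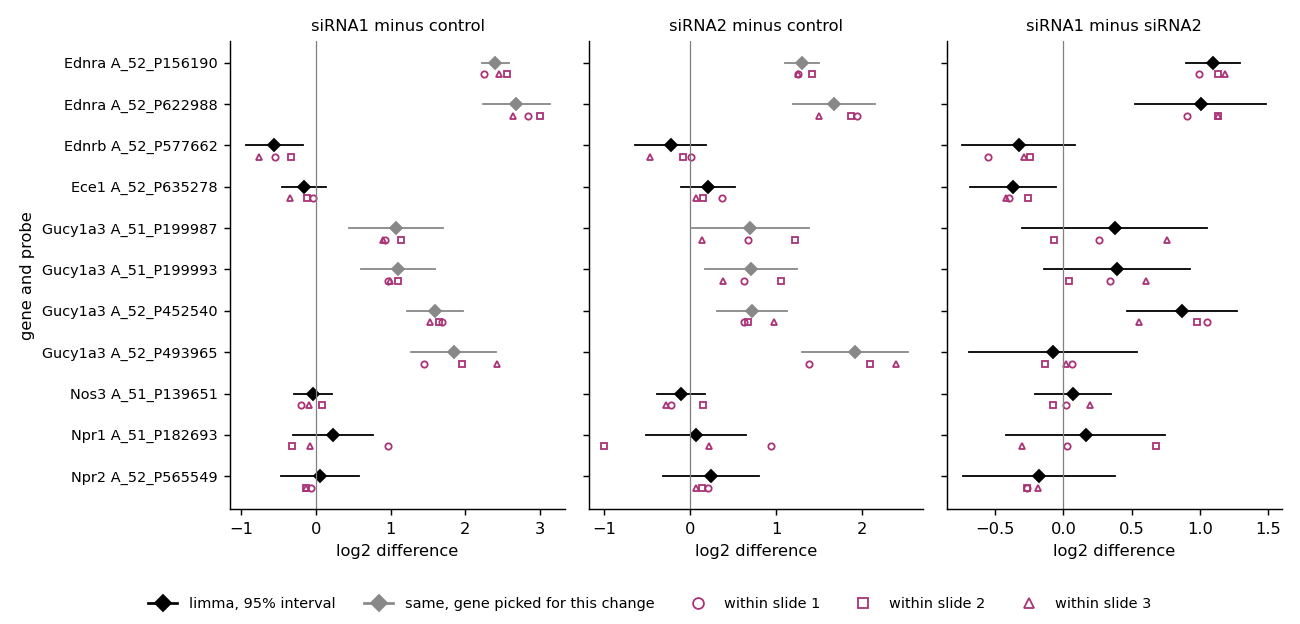
Log2 differences with their 95% intervals from the limma fit (diamonds and lines) for the 11 probes that passed the filter, in 3 comparisons, and the same difference computed within each of the 3 slides (open markers). Gray symbols mark the siRNA comparisons with control for which *Ednra* and *Gucy1a3* were picked, and in the siRNA1 minus siRNA2 panel the main *Ednra* probe lies at 1.10 and the *Gucy1a3* probes range from -0.08 to 0.87. The second *Ednra* probe was well above background with siRNA1 only, so its plotted differences are not measured sizes. Those of *Npr1*, which passed the filter only through siRNA1, are not measured sizes either.

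*Nos3*, the endothelial nitric oxide synthase, was well above background on all 11 arrays and stayed close to control. Its probe lay on 10 spots of each array and gave 88.4%, 109%, 96.4%, and 108% in control. The siRNA1 arrays gave 92.5%, 115%, 90.5%, and 93.7%, and with siRNA2 80.7%, 107%, and 92.4%. The groups overlapped throughout. The log2 difference from control was -0.04 with siRNA1 (95% interval -0.30 to 0.22, limma adjusted p = 0.851) and -0.11 with siRNA2 (-0.39 to 0.17, limma adjusted p = 0.652), and that between the siRNAs was 0.07 (-0.21 to 0.35, limma adjusted p = 0.739).

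*Gucy1a3*, the alpha subunit of the soluble guanylyl cyclase, had 4 probes that passed the filter, all well above background on all arrays. The main probe (A_51_P199987) gave 70.0%, 129%, 108%, and 102% in control. The siRNA1 values were 177%, 321%, 178%, and 194%. With siRNA2 it gave 105%, 252%, and 162%. Every siRNA1 array exceeded every control array, whereas siRNA2 replicate 1 lay within the control range and siRNA2 replicate 2 lay above 3 of the siRNA1 arrays. As a description, the level was 2.11-fold the control with siRNA1 (log2 difference 1.07, SE 0.29) and 1.62-fold with siRNA2 (0.70, SE 0.31). Within slides the siRNA1 difference was 0.90 to 1.14 and the siRNA2 difference 0.14 to 1.22.

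The 4 *Gucy1a3* probes did not give 1 picture. Probe A_51_P199993 gave 77.8%, 120%, 113%, and 94.5% in control, 192%, 303%, 195%, and 185% with siRNA1, and 126%, 237%, and 146% with siRNA2. Its log2 differences were 1.10 with siRNA1 and 0.71 with siRNA2, close to those of the main probe. Probe A_52_P452540 gave 121%, 98.2%, 98.2%, and 86.0% in control, 315%, 253%, 376%, and 276% with siRNA1, and 215%, 156%, and 133% with siRNA2. Its differences were 1.59 and 0.72, and its 3 groups did not overlap.

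The dimmest of the 4, A_52_P493965, was named through the deposited table rather than a RefSeq accession. It gave 96.0%, 121%, 82.5%, and 104% in control, with signals of 10.2 to 12.1 units. With siRNA1 the values were 577%, 304%, 336%, and 283%, and with siRNA2 569%, 352%, and 272%. Here both siRNAs were alike in size, with log2 differences of 1.85 and 1.92, and the highest array of each siRNA group was its replicate 1. On the main probe and on A_51_P199993 the highest array of each siRNA group was replicate 2 instead.

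Between the siRNAs, 1 of the 4 *Gucy1a3* probes passed the test. As for *Ednra*, this contrast uses siRNA values that chose the gene, so its p-values are not independent of that choice. A_52_P452540 was higher with siRNA1 by a log2 difference of 0.87 (95% interval 0.47 to 1.28, limma adjusted p = 0.0054, within slides 0.55 to 1.05). The main probe differed by 0.38 (-0.30 to 1.06, limma adjusted p = 0.426), A_51_P199993 by 0.39 (-0.14 to 0.93, limma adjusted p = 0.284), and A_52_P493965 by -0.08 (-0.69 to 0.54, limma adjusted p = 0.879). Whether the siRNAs differed in *Gucy1a3* therefore depended on the probe, and where in the transcript each probe lies was not analysed here.

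**Figure D3:**
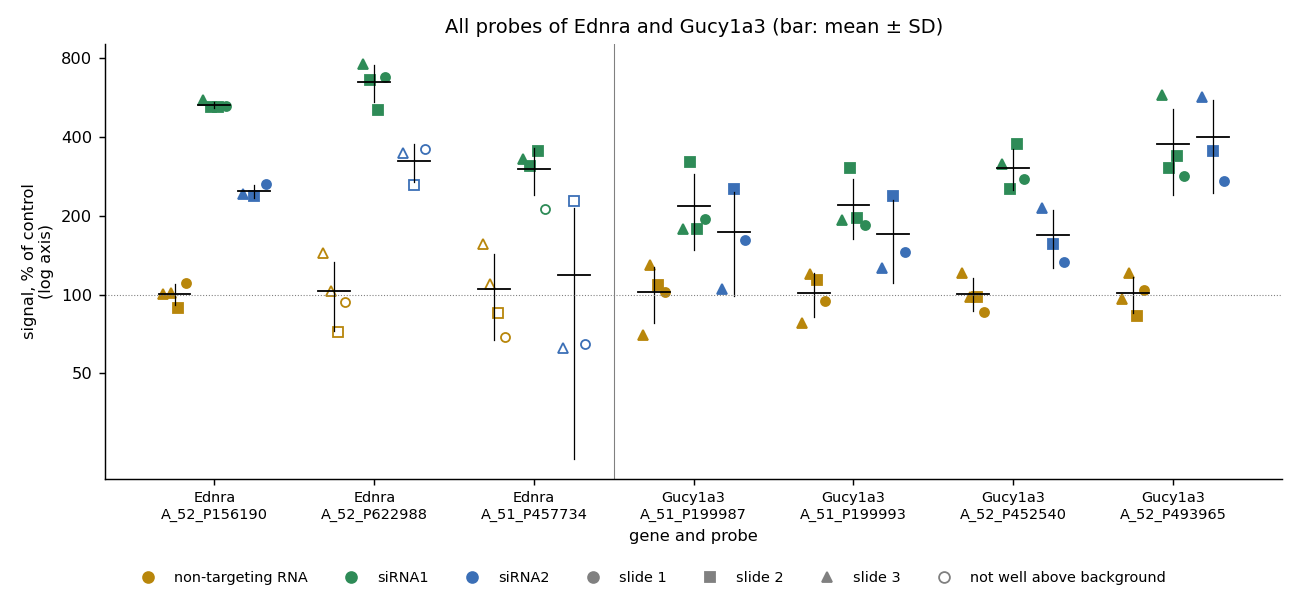
All 3 *Ednra* probes and all 4 *Gucy1a3* probes on every array, in percent of each probe's control mean on a logarithmic axis, with group means and SDs as bars, marker shapes for slides, and open markers where the probe was not well above background. Only the main *Ednra* probe was well above background in control and siRNA2 cells, where it gives the order control, siRNA2, siRNA1, and A_52_P493965 is the *Gucy1a3* probe on which both siRNA groups lie at the same height.

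*Gucy1b3*, the beta subunit that soluble guanylyl cyclase needs for its activity, was not well above background with any of its 3 probes on any of the 11 arrays, with signals of 1.71 to 8.69 units. No fold is given for it. In the RefSeq gene table its gene is the direct neighbor of *Gucy1a3* on chromosome 3, with 0 protein-coding genes between them, on the same strand. Its promoter window holds the letters of the cAMP response element core, the RBPJ site, and the GC box.

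The membrane guanylyl cyclases were dim, and their groups overlapped. *Npr1*, the receptor for atrial natriuretic peptide, gave 98.2%, 95.8%, 157%, and 67.8% in control, where it was well above background on 1 of 4 arrays. With siRNA1 it gave 91.5%, 115%, 137%, and 133%, well above background on all 4, and with siRNA2 113%, 78.1%, and 130%, on 2 of 3. The highest array of all was a control array, and all groups overlapped. The log2 difference was 0.23 with siRNA1 (95% interval -0.31 to 0.77, limma adjusted p = 0.531) and 0.07 with siRNA2 (-0.52 to 0.65, limma adjusted p = 0.911). *Npr1* passed the filter only through the siRNA1 arrays, the group with its highest mean, and most control arrays were not well above background. These differences are therefore not measured sizes, and nothing is read from their tests.

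*Npr2*, the receptor for C-type natriuretic peptide, was measurable with 1 of its 3 probes (A_52_P565549). This probe gave 76.0%, 85.4%, 129%, and 119% in control. The siRNA1 arrays gave 73.7%, 129%, 108%, and 114%, and with siRNA2 84.1%, 142%, and 138%. In each group the array or arrays of slide 3 were the lowest, and all groups overlapped. The log2 difference was 0.06 with siRNA1 (95% interval -0.46 to 0.57, limma adjusted p = 0.889) and 0.24 with siRNA2 (-0.32 to 0.80, limma adjusted p = 0.608).

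*Prkg1*, the kinase that cGMP activates, was well above background only on control replicate 3 (157%, 8.66 units) and siRNA1 replicate 1 (168%, 9.81 units) and was not tested. Its remaining 9 arrays lay between 51.6% and 132%. Across the 5 unpicked genes that were tested, the median log2 difference was -0.04 with siRNA1 and 0.07 with siRNA2, beside -0.05 and -0.01 over all tested probes. The siRNA2 median is the value of *Npr1*, which is not a measured size.

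Of 89 further genes of these pathways, 81 were on the array and 57 passed the filter. With siRNA1, 6 of the 57 rose and 13 fell (10.5% and 22.8%, beside 11.8% and 15.2% of all tested probes), by the main probe of each gene. With siRNA2, 5 rose and 9 fell (8.77% and 15.8%, beside 7.7% and 10.7%). The median log2 difference was -0.15 and -0.07. By at least 2-fold, 1 of the 57 rose and 2 fell with siRNA1, beside 1.19% and 1.81% of all tested probes. With siRNA2, 1 of the 57 rose and 3 fell by that much, beside 0.742% and 1.51%. Each of these shares of the 57 was larger than that of all tested probes, but they rest on 1 to 3 genes each.

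**Figure D4:**
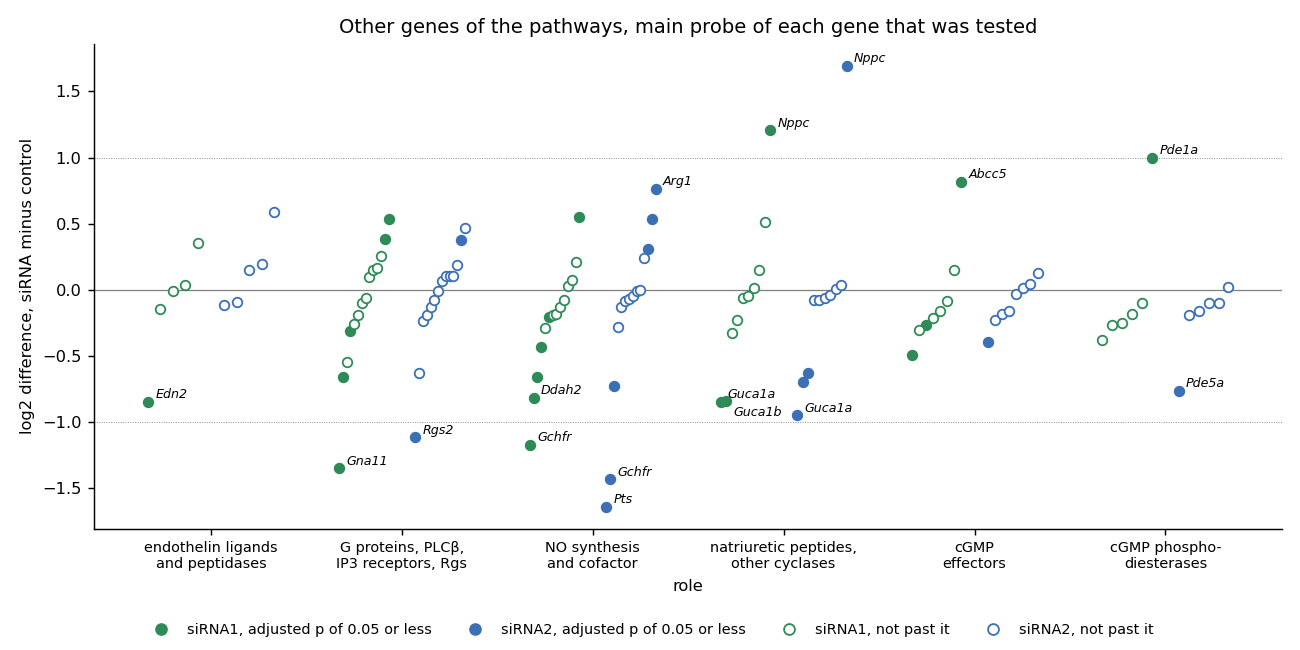
Log2 difference from control of the 57 further pathway genes, by role, for siRNA1 (green) and siRNA2 (blue), with filled points where the limma test was passed and dotted lines at a 2-fold change. Most genes lie between the dotted lines, and the points beyond them are *Nppc* above and *Gna11*, *Rgs2*, *Gchfr*, and *Pts* below.

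Among the other endothelin peptides and peptidases, 5 of 7 genes passed the filter. By the main probes, 1 of the 5 fell with siRNA1 (20%, beside 15.2% of all tested probes), and with siRNA2 0 passed the limma test and 1 (*Edn2*) had an unadjusted p under 0.05. *Mme*, a peptidase that degrades such peptides, did not pass on its main probe (-0.01 and 0.15), while its second probe rose with both siRNAs (0.36, limma adjusted p = 0.0153, and 0.32, limma adjusted p = 0.0475). *Edn2*, a second endothelin peptide that binds the same receptors, is named here after its values were seen. Its level was 78.0% to 132% in control, 33.2% to 69.5% with siRNA1, and 121% to 180% with siRNA2, well above background on 10 of 11 arrays. *Edn2* fell by 0.85 on the log2 scale with siRNA1 (SE 0.24, limma adjusted p = 0.0240), and the 0.59 difference with siRNA2 did not pass the test (limma adjusted p = 0.157) but did with slide as a block (0.48, adjusted p = 0.0393), and it was 0.45 to 0.63 within slides. The siRNAs differed by -1.43 (95% interval -2.01 to -0.85, limma adjusted p = 0.0024), and no siRNA1 array reached any siRNA2 array. The call against control was lost without control replicate 3 or 4 (adjusted p = 0.0524 and 0.0715), with quantile normalization, and without the filter, and the sign turned under normexp with an offset of 50 (0.69). *Edn3*, the remaining endothelin peptide, was not well above background on any array.

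Downstream of the endothelin receptors, 2 of 14 genes rose and 3 fell with siRNA1 (14.3% and 21.4%, beside 11.8% and 15.2% of all tested probes), and 1 rose and 1 fell with siRNA2 (7.14% each, beside 7.7% and 10.7%). *Gna11*, a G protein alpha subunit that couples such receptors to phospholipase C, gave 91.7% to 108% in control, 39.0% to 39.4% with siRNA1, and 111% to 120% with siRNA2. *Gna11* fell with siRNA1 (log2 difference -1.35, limma adjusted p = 9.38e-07) and not with siRNA2 (0.19, limma adjusted p = 0.130), and the siRNAs differed by -1.54 (limma adjusted p = 8.81e-07). Its second probe gave -1.38 and 0.07. *Gnaq*, the close relative of *Gna11*, showed differences of -0.10 and -0.19 that did not pass the test. *Rgs2*, which limits signaling through such G proteins, fell with both siRNAs, to 58.3% to 66.0% with siRNA1 (-0.66, limma adjusted p = 0.0035) and 44.3% to 48.5% with siRNA2 (-1.11, limma adjusted p = 0.000306). *Itpr2*, a calcium channel that opens on IP3, rose with siRNA1 on all 4 of its probes (0.51 to 1.06, and 0.54 on the main probe, limma adjusted p = 0.0154) and gave -0.01 with siRNA2. *Itpr1*, a related channel, rose with both on its main probe (0.38 and 0.37), but its second probe rose with siRNA1 (0.46) and did not pass with siRNA2 (0.32, limma adjusted p = 0.0968). The siRNA2 call of the main probe was lost without siRNA2 replicate 1 (adjusted p = 0.0601) and with median scaling (adjusted p = 0.0869).

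In nitric oxide synthesis, 1 of 14 genes rose and 5 fell with siRNA1 (7.14% and 35.7%, beside 11.8% and 15.2% of all tested probes), and 3 rose and 3 fell with siRNA2 (21.4% each, beside 7.7% and 10.7%). *Gch1*, *Pts*, *Spr*, and *Qdpr* make or recycle tetrahydrobiopterin, the cofactor of nitric oxide synthases. *Gch1*, the first enzyme of its synthesis, rose to 131% to 164% with siRNA1 (0.55, limma adjusted p = 0.0035) and 127% to 164% with siRNA2 (0.54, limma adjusted p = 0.0086), whereas its second probe did not pass with either (0.23, limma adjusted p = 0.200, and 0.31, limma adjusted p = 0.131). *Gchfr*, the feedback regulator that restrains *Gch1*, fell to 37.6% to 52.8% (-1.17, limma adjusted p = 0.000173) and 32.2% to 46.9% (-1.43, limma adjusted p = 0.000119). *Pts*, the second enzyme, fell to 54.9% to 69.7% with siRNA1 (-0.66, limma adjusted p = 0.0018) and further, to 28.2% to 36.2%, with siRNA2 (-1.64, limma adjusted p = 1.17e-05), and the siRNAs differed by 0.98 (limma adjusted p = 0.000262), with a second probe at -0.62 and -1.66. *Spr*, the third enzyme, did not pass the test (-0.13 and -0.01), and *Qdpr* fell with siRNA1 (-0.21, limma adjusted p = 0.0381) and gave -0.09 with siRNA2, which did not pass. *Ddah2*, which breaks down an inhibitor of nitric oxide synthases, fell with both (-0.81 and -0.73). *Nos1* did not pass the test (0.03 and -0.13), and *Nos2* was not well above background.

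Among natriuretic peptides and other cyclases, 1 of 10 genes rose and 2 fell with siRNA1 (10% and 20%, beside 11.8% and 15.2% of all tested probes), and 1 rose and 3 fell with siRNA2 (10% and 30%, beside 7.7% and 10.7%). *Nppc*, the precursor of C-type natriuretic peptide and thus the ligand of *Npr2*, rose with both siRNAs. Its level was 89.4% to 107% in control, 188% to 320% with siRNA1 (1.20, limma adjusted p = 0.000341), and 273% to 391% with siRNA2 (1.69, limma adjusted p = 9.11e-05), without overlap with control. The siRNAs differed by -0.49, which did not pass the test (limma adjusted p = 0.0716) but did with slide as a block (-0.54, adjusted p = 0.0167). The precursors of the other natriuretic peptides, *Nppa* (-0.32 and -0.04) and *Nppb* (-0.05 and -0.07), did not pass. *Guca1a* and *Guca1b*, activators of retinal guanylyl cyclases, fell with both siRNAs (-0.84 and -0.95, and -0.84 and -0.63), and the sign of *Guca1a* turned under normexp with an offset of 50 (0.54 and 0.26). *Gucy1b2*, another beta subunit of soluble guanylyl cyclase, gave 92.7% to 112% with siRNA1 and fell with siRNA2, to 56.4% to 68.8% (-0.70).

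Among enzymes that break down cGMP, 1 of 6 rose with siRNA1 (16.7%, beside 11.8% of all tested probes) and 1 fell with siRNA2 (16.7%, beside 10.7%). *Pde1a*, a calcium-activated phosphodiesterase of cGMP and cAMP, gave 94.9% to 111% in control, 189% to 205% with siRNA1 (1.00, limma adjusted p = 1.50e-05), and 83.0% to 99.3% with siRNA2 (-0.10, limma adjusted p = 0.525), and the siRNAs differed by 1.10 (limma adjusted p = 1.49e-05). Of its other 3 probes, 2 gave 1.49 and 1.41 with siRNA1 and 1 gave 0.20, which did not pass the test. *Pde5a*, the cGMP-specific phosphodiesterase, fell with siRNA2 (-0.76, limma adjusted p = 0.0439). This call was lost without control replicate 2, 3, or 4, siRNA1 replicate 1, 3, or 4, or siRNA2 replicate 1 or 2 (adjusted p = 0.0542 to 0.155), and without the filter (adjusted p = 0.103). Of 8 cGMP effectors, 1 rose and 2 fell with siRNA1 (12.5% and 25%, beside 11.8% and 15.2%), and 1 fell with siRNA2 (12.5%, beside 10.7%). *Kcnma1*, a calcium-activated potassium channel, fell with both siRNAs (-0.49 and -0.39), where the siRNA2 call was lost without control replicate 1, 2, or 3 or siRNA2 replicate 2 or 3 (adjusted p = 0.0575 to 0.112) and without the filter (adjusted p = 0.0701). *Abcc5*, which exports cyclic nucleotides, rose with siRNA1 (0.82, limma adjusted p = 2.40e-05) and gave -0.23 with siRNA2 (limma adjusted p = 0.0794), the siRNAs differing by 1.04 (limma adjusted p = 8.81e-06). Its other 2 probes both fell with siRNA2 (A_51_P116419, -0.26, limma adjusted p = 0.0351, and A_52_P628117, -0.64, limma adjusted p = 0.0021), and with siRNA1 the former rose (0.82) while the latter gave -0.27, which did not pass the test.

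Endothelin receptors and soluble guanylyl cyclase are also abundant in vessels and smooth muscle, so markers of those cells were read on the same arrays. Of 6 endothelial markers, *Cdh5* alone passed the filter, and it rose with both siRNAs (log2 difference 1.22, limma adjusted p = 2.14e-05, and 0.84, limma adjusted p = 0.000652). *Tek*, *Tie1*, *Kdr*, and *Vwf* were not well above background on any array, and *Pecam1* was on 0 control, 2 siRNA1, and 1 siRNA2 arrays. The summed scaled signal of the 6 was 66.0% to 71.5% of the array's 75th percentile in control, 129% to 177% with siRNA1, and 112% to 136% with siRNA2, almost all of it from *Cdh5*. Of 5 smooth muscle markers, 4 passed the filter, and 1 of them (*Des*) fell with siRNA1 by its main probe (-0.72). The summed scaled signals, most of them from *Acta2*, overlapped (1391% to 1774% in control, 1199% to 1744% with siRNA1, and 1232% to 1846% with siRNA2). The main *Acta2* probe did not pass the test (-0.12 and -0.03). A second, dimmer *Acta2* probe fell with siRNA1 (-0.41, limma adjusted p = 0.0420) and did not pass with siRNA2 (-0.26). Sertoli cell markers (1 of 4 passed) and macrophage markers (1 of 3) showed no change past the test. The part of any of these in the *Ednra* and *Gucy1a3* levels was not tested. Of the 7 Leydig cell markers, 2 fell with siRNA1 (28.6%, beside 15.2% of all tested probes), 1 fell with siRNA2 (14.3%, beside 10.7%), and 0 rose. *Cyp17a1* fell with both (-0.92, limma adjusted p = 0.000216, and -0.48, limma adjusted p = 0.0237). *Lhcgr* fell with siRNA1 (-0.63, limma adjusted p = 0.00285) and did not pass with siRNA2 (0.16).

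The profile of *Ednra* over the 11 arrays was most like those of *Cep97*, *Fzd1*, and *Qk*, with Pearson correlations of log2 level of 0.988, 0.986, and 0.986 among 16971 probes of other named genes. That of *Gucy1a3* was most like those of *Zbed4*, *Fzd5*, and *Akr1c13*, with correlations of 0.948, 0.947, and 0.943. These values are descriptions over 11 arrays that share the 3 groups and the scaling.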

How the data were processed

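Total RNA of MLTC-1 cells was hybridized to 11 one-color Agilent arrays (control 4, siRNA1 4, siRNA2 3). Per the file headers, signal intensities were made by Feature Extraction (version 9.5.1.1), which subtracted background and local trends without normalization between arrays. The authors also deposited group averages as intensities and log2 values for selected probes. Only the gene symbols of that table were used here. Spot signals other than control spots (43379 of 45018) were scaled by the 75th percentile of each array and converted to log2, and spots of a probe were averaged. Of 41174 probes, 24375 were named by RefSeq accession, 24 by the deposited table, and 16775 stayed unnamed. The array was annotated on an older genome build than the RefSeq promoters (GRCm38.p6), so no probe was placed by coordinates. Promoters were found for 9 of 10 genes, with *Nos3* not listed.

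limma (version 3.58.1, R 4.3.3) was run on the 3 groups together (lmFit, eBayes), was tested on simulated data, and is set beside exact permutation tests whose smallest two-sided p is 0.0286. The genes and lists were chosen with earlier results of these data known. Genes named from the pathway list are those with a probe changed at least 2-fold at an adjusted p of 0.05 or less with either siRNA, and the others were named after their values were seen. Alternatives were 2 normexp background corrections (offset 50, once with local backgrounds above the 99th percentile replaced), quantile and median scaling, no filter or a stricter one (11 of 11 arrays), retained outlier spots, slide or replicate number as a block, the methods' t-test, other probes, and leaving out each array. The number of arrays limits the precision.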

Additional observations from a re-analysis of the deposited data

Results flagged for a closer look

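Of the 14 groups of 4 arrays examined for the 7 genes that passed the filter, 4 held an array far from the other 3, where chance gives about 1 in 20 groups. The highest siRNA1 array of *Ednra* was replicate 1 at 551% of control, beside 520% to 525% in the other 3. That gap is small in size and stood out because the other 3 lay so close together. The highest control array of *Ednrb* was replicate 1 at 140%, and the fall of *Ednrb* with siRNA1 did not pass the test without it (adjusted p = 0.0710 in limma). The highest siRNA1 array of *Gucy1a3* was replicate 2 at 321%, and that of *Nos3* was also replicate 2, at 115%.

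*Ednra* differed between the siRNAs, with a log2 difference of 1.10 between siRNA1 and siRNA2 (limma adjusted p = 1.17e-05), higher in 4 of 4 siRNA1 arrays than in every siRNA2 array. This contrast uses siRNA values that chose the gene, so the p-value is not independent of that choice.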

How the results depend on the processing

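Counts of probes changed at least 2-fold moved by over 1.5 times under the normexp corrections. Against 288 higher and 438 lower with siRNA1, 180 and 365 with siRNA2, and 463 and 351 between the siRNAs, they were 43 and 151, 18 and 78, and 35 and 36 with an offset of 50, and 82 and 127, 53 and 135, and 169 and 121 with extreme local backgrounds replaced. The methods' t-test gave 288 and 439 with siRNA1 and 177 and 367 with siRNA2 at the threshold of the methods, and 266 and 421, and 140 and 339, after Benjamini-Hochberg adjustment. With each array left out, they were 279 to 316 and 410 to 464, 164 to 201 and 352 to 387, and 424 to 527 and 338 to 402.

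Of 1283 values of single genes under an alternative, 1155 kept their direction and side of the threshold or moved by less than 1 SD, and 42 changed sign. The main *Ednra* probe lay at 1.89 to 2.45 with siRNA1 and 1.03 to 1.35 with siRNA2 over all alternatives, and its difference between the siRNAs (0.77 to 1.14) missed the threshold under normexp with an offset of 50 (0.77, adjusted p = 0.0654). Under that correction the sign changed for *Ednrb* (0.56, 0.40, and 0.16 with siRNA1, with siRNA2, and between the siRNAs), *Nos3* (0.71 and 0.46 with the siRNAs), *Npr2* between the siRNAs (0.23), *Pde1a* with siRNA2 (0.49), and *Edn2* with siRNA1 and between the siRNAs (0.69 and 0.035), *Guca1a* (0.54 and 0.26 with the siRNAs), and *Gucy1b2* and *Pde5a* with siRNA1 (-0.28 and 0.13). Each pathway gene that the text names as changed on its main probe, other than *Gna11* and *Qdpr* (*Qdpr* was not run), then lost at least 1 call (*Gchfr* -0.037 and -0.27). With extreme backgrounds replaced the sign changed for *Npr1* (-0.27, -0.071, and -0.20), *Npr2* (-0.24 and -0.037 with the siRNAs), *Nos3* between the siRNAs (-0.090), and *Itpr2* with siRNA2 (0.021). *Npr1* with siRNA1 then passed the threshold as a fall (adjusted p = 0.0361), opposite to its main value of 0.23. *Nos3* with siRNA1 was 0.017 after quantile and 0.0054 after median scaling, *Itpr2* with siRNA2 was 0.048 after quantile scaling, and *Npr2* with siRNA1 was -0.12 with slide as a block. *Gucy1a3* between the siRNAs was -0.075 on A_52_P493965. With 1 array left out, signs changed for *Nos3* (with siRNA1 -0.12 to 0.0037, between the siRNAs -0.031 to 0.17), *Npr1* (with siRNA2 -0.12 to 0.28, between the siRNAs -0.047 to 0.32), *Npr2* (with siRNA1 -0.076 to 0.22), *Gucy1b2* (with siRNA1 -0.033 to 0.056), and *Itpr2* (with siRNA2 -0.12 to 0.058). With the filter on all 11 arrays, *Npr1* and *Edn2* were not tested and have no value. The second *Ednra* probe gives only bounds and was not used as an alternative. The cause was not tested.

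The labels number the replicates in each group. Deviations of same-numbered arrays correlated at -0.18 to 0.53 over 10 pairs (median 0.30), beside a median of -0.10 over differently numbered arrays. The median was 0.30 over arrays of the same slide and -0.12 over arrays of different slides. Several same-numbered arrays shared a slide, so a pairing by number can be told apart from the slide only in part. Same-numbered arrays on different slides correlated at -0.18 to 0.30, and differently numbered arrays on the same slide at -0.07 to 0.42. Whether number or slide matters was not tested. With the replicate block, the counts were 295 and 449, 195 and 372, and 497 and 366, *Ednra* was 2.40 and 1.33, and *Ednrb* with siRNA1 was -0.56 (adjusted p = 0.0425). The main *Gucy1a3* probe gave 0.39 between the siRNAs and passed the test neither with this block (adjusted p = 0.0654) nor without (0.426). That contrast uses siRNA values that chose the gene, so nothing is read from the change in p. With the replicate block *Ece1* between the siRNAs passed the threshold (-0.44, adjusted p = 0.0173), as did *Nppc* (-0.43) and *Edn2* with siRNA2 (0.71), and *Itpr2* with siRNA2 became 0.045. Probes near the background level, among them *Npr1*, *Npr2*, and *Edn2*, are limited by their signal.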
